A study of Mus musculus with 4 samples.

Results

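Dimethylation of lysine 9 of histone H3 (H3K9me2) was measured at the promoters of the genes that write and erase H3K9 methylation, in a ChIP-seq count table of aortic vascular smooth muscle cells (VSMCs). The group was set by gene name and comprised 10 genes, namely the H3K9 methyltransferases Ehmt1, Ehmt2, Suv39h1, Suv39h2 and Setdb1, the G9A partner Wiz, and the demethylases Kdm3a, Kdm3b, Kdm4a and Kdm4c. Of these, 9 had a row among the 26354 promoters of the table, and Setdb1 was not analysed here. The mice were C57Bl/6J males, and the tissue was the aortic media, used without culture after fat, adventitia and endothelium had been taken off by hand. The labels give no allele and no treatment of the animals, and neither their age nor the number of animals per library was given in the sources used here. There were 2 experiments, v102 and v134. Each gave a ChIP library for H3K9me2 and an input library of DNA without immunoprecipitation, 4 libraries in all. There was therefore 1 condition, and the comparison available was ChIP against input at each promoter. A bulk ChIP signal averages over all cells left in the layer, and a table of promoter counts holds no expression values against which the cell type label could be checked.

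H3K9me2 is associated with silent genes in euchromatin. It is laid down mainly by the heterodimer of G9A, encoded by Ehmt2, and GLP, encoded by Ehmt1, and the zinc finger protein WIZ binds this complex. SUV39H1 and SUV39H2 trimethylate H3K9 in pericentromeric heterochromatin, and SETDB1 does so at retroelements and at targets of KRAB zinc finger proteins. Enzymes of the KDM3 family remove the mono- and dimethyl marks, and enzymes of the KDM4 family act on tri- and dimethylated H3K9 and also on methylated H3K36. In the arterial media, H3K9me2 has been studied as a brake on inflammatory genes such as the matrix metalloproteinases. The values here describe the mark at the promoters of these enzymes' genes and not the amount or activity of the enzymes.

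The promoters on which the results turned are shown as the 250 bases upstream of a RefSeq start site in GRCm38.p6, read 5′ to 3′ on the strand of the gene, with each CpG dinucleotide in capitals. Wiz was chosen because it had the highest ratio of ChIP to input reads in the group and Ehmt2 because it had the lowest. Kdm4c is given at both of its RefSeq starts because the table row could be either and these differ in base composition. The metalloproteinase promoter Mmp12 is given as the reference with a high ratio. RefSeq also holds further starts that are not shown, with 2, 10 and 24 CpG in the 250 bases for Wiz, 36 for Ehmt2 and 2 for Mmp12.
Wiz, chr17:32389407-32389656, minus strand: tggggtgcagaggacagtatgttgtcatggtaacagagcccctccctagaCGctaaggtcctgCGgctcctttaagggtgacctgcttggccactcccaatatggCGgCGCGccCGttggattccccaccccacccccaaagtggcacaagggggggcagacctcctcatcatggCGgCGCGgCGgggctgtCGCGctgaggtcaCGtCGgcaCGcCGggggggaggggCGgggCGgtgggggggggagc
Ehmt2, chr17:34898224-34898473, plus strand: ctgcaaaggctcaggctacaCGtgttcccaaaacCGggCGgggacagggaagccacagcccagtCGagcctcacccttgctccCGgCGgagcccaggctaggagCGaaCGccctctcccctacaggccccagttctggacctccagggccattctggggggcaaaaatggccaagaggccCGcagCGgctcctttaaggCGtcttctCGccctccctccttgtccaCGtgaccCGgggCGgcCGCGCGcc
Kdm4c, upstream start, chr4:74242247-74242496, plus strand: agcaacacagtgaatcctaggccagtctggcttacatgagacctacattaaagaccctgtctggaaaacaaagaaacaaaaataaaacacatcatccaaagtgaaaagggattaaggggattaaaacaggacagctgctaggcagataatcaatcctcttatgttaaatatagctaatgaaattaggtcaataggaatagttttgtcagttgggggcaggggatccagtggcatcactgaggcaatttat
Kdm4c, downstream start, chr4:74251629-74251878, plus strand: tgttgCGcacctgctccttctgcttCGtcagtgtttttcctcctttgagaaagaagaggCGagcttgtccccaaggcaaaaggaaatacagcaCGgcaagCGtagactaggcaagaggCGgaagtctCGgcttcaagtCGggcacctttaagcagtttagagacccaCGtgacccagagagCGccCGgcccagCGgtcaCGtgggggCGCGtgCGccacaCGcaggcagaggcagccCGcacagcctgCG
Mmp12, chr9:7344147-7344396, plus strand: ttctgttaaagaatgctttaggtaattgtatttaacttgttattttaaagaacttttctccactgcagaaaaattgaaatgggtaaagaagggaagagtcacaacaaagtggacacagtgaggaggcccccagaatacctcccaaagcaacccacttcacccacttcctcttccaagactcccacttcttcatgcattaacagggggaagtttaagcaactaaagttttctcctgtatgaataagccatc
The Wiz and Ehmt2 stretches hold 18 CpG dinucleotides each, the downstream Kdm4c stretch holds 19, and the upstream Kdm4c and Mmp12 stretches hold 0. Across 32851 RefSeq promoter stretches of this length the median was 6 CpG, and 7.87% held 0. A GC box, spelled GGGCGG and searched on both strands, was found in the Wiz and Ehmt2 stretches and in 32.7% of all stretches. A CCAAT box, spelled CCAAT, was found in the Wiz stretch only among these 5 and in 33.8% of all stretches. The letters TATAAA were found in none of the 5 and in 12.4% of all stretches. These matches describe the letters and do not show that a factor binds. RefSeq stretches were examined for 8 of the members. Kdm3b was not among these, and whether RefSeq holds a stretch for it was not assessed.

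Read depth set the precision of every value that follows. Over all promoters of the table, the ChIP libraries held 162233 reads (v102) and 229605 reads (v134), and the input libraries held 619100 and 1084349 reads. At the median promoter the ChIP libraries held 4 reads (v102) and 5 reads (v134), and the inputs held 20 and 37. In the 2 input libraries, 14.29% and 7.528% of these reads lay in 30 mitochondrial rows, compared with 0.2% and 0.175% in the ChIP libraries. The H3K9me2/input ratio used below is the number of ChIP reads summed over both experiments divided by the summed input reads, as deposited, and is not scaled for library size. Its median over all promoters was 0.162 and its 75th percentile was 0.343. Intervals on it are 95% Wilson intervals, which cover counting error alone and not the variation between experiments. Reads were not tagged with molecular identifiers and may repeat a molecule, so the intervals may be too narrow even for counting error. The low-H3K9me2 reference promoter Actb had a ratio of 0.0119, whereas Magea2, Mmp9, Mmp3 and Mmp12 had ratios of 0.455, 0.4, 0.537 and 0.815.

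As a group the writers and erasers sat close to the average promoter. Summed over the 9 promoters there were 109 ChIP and 507 input reads, a ratio of 0.215 (95% interval, 0.175 to 0.264), compared with 0.230 for the summed reads of all promoters. Relative to all promoters the pooled ratio was 0.935 (0.760 to 1.15). It was 0.932 in v102 and 0.942 in v134 when each library was scaled by its own total. With the mitochondrial rows left out of all promoters, it was 0.843 (0.686 to 1.04), and 0.801 in v102 and 0.872 in v134. The median ratio of the members was 0.188, compared with 0.162 over all promoters. By the mean log2 ratio of both experiments, the median member stood at the 50.0 percentile of all promoters. The 5 members with at least 20 reads in each input (Wiz, Kdm3a, Kdm3b, Kdm4a and Kdm4c) had a median at the 76.2 percentile of the promoters that met this minimum. ChIP counts were compared with input counts by the edgeR quasi-likelihood test, and p-values were adjusted by the Benjamini-Hochberg method over all 26354 promoters. In this test, 0 members passed an adjusted p of 0.05 above input, compared with 18.6% of all promoters. Of the reference promoters with high ratios, Mmp3 and Mmp12 passed it (adjusted p of 0.00657 and 9.0e-06), but Magea2 and Mmp9 did not (0.170 and 0.0628). A promoter that did not pass is therefore not shown to lack the mark. Below input, 1 member passed, Ehmt2, compared with 17% of all promoters. A further member, Wiz, had an unadjusted p under 0.05 above input, and DESeq2 called 0 members in either direction, with the adjusted p defined for 3 of the 9 members only. DESeq2 called 11.5% of all promoters above input and 0.11% below. The median log2 fold change of ChIP over input was −0.14 for the members and −0.35 for all promoters. The test rests on 2 libraries against 2.

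**Figure D1:**
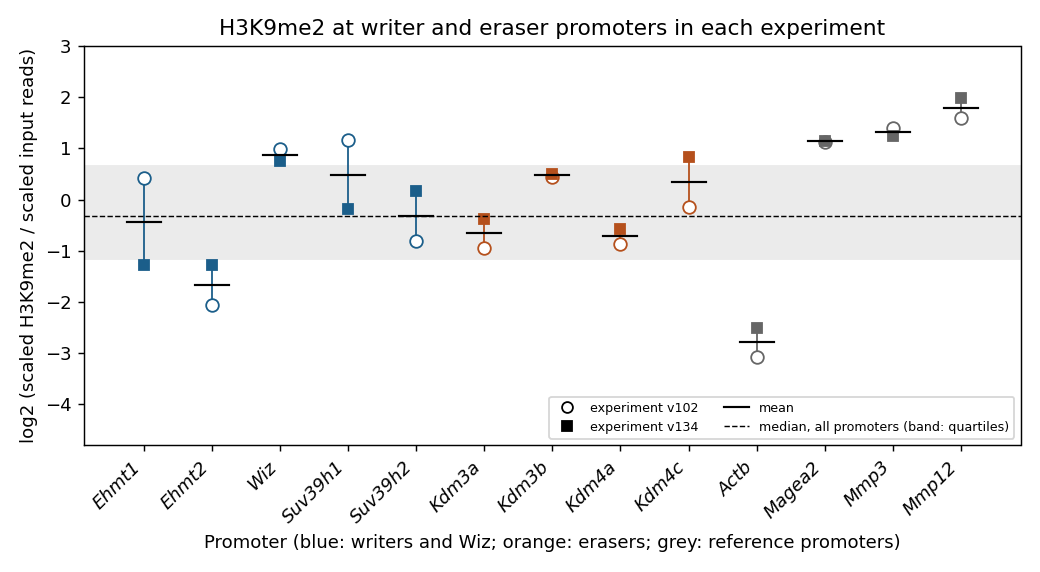
H3K9me2 at the promoters of the writers with Wiz (blue), the erasers (orange) and reference promoters (grey). The vertical axis is the log2 ratio of ChIP reads to input reads after scaling to the total of each library over promoters, with 1 read added; circles are experiment v102, squares are v134, bars are their mean, and the dashed line and band are the median and quartiles of all promoters. The line and band are taken from the mean of the 2 experiments at each promoter, not from either experiment alone. Wiz lies above this band in both experiments and Ehmt2 below it in both, while Ehmt1 lies in it in v102 and below it in v134. Within v134 alone, Ehmt1 and Ehmt2 both stand at the 26.1 percentile, so neither is below the lower quartile of that experiment.

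The Ehmt2 promoter, which belongs to the gene of G9A, had the lowest ratio of ChIP to input reads of the group. It had 0 and 1 ChIP reads in v102 and v134, against 15 and 22 input reads. By experiment, Ehmt2 stood at the 7.43 percentile of all promoters in v102 and at the 26.1 percentile in v134. The 0 reads in v102 allow a ratio of up to 0.2 there, with 3 reads taken as the limit for a count of 0 and the input count taken as exact. The ratio over both experiments was 0.0270 (0.00468 to 0.156), at the 12.2 percentile of all promoters by the mean log2 ratio of the experiments. The log2 fold change was −2.85 (SE 1.14), with an adjusted p of 0.0384 in the edgeR quasi-likelihood test. With the experiment number as a block it was −2.86 with an adjusted p of 0.102, and 8.3% of all promoters were then called below input. Over 8 alternative fits the adjusted p ranged from 0.0260 to 0.369, it was undefined in DESeq2, and 2 of these fits passed the threshold. Leaving out any single library took the adjusted p above it, to 0.148 and 0.0580 without the ChIP of v102 and of v134 and to 0.369 and 0.258 without the input of v102 and of v134. In these 4 fits 15.2%, 8.83%, 1.88% and 1.95% of all promoters were called below input. Ehmt2 spans chr17:34898469-34914052 on the plus strand in GENCODE M21, and the start of the complement gene C2 lies 204 bases away on the opposite strand. The rows of Ehmt2 and C2 held identical counts in all 4 libraries, so the H3K9me2 of these promoters cannot be told apart. It was the only member whose window overlapped that of another matched row.

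Ehmt1, the gene of GLP at chr2:24789928-24919614 on the minus strand, gave different levels in the 2 experiments. It had 6 ChIP reads against 19 input reads in v102, and 3 against 45 in v134. The ratio was thus 0.316 in v102 and 0.0667 in v134, at the 64.5 and 26.1 percentiles of the promoters. Its summed ratio was 0.141 (0.0709 to 0.279). The log2 fold change was −0.54 (SE 0.58) with an adjusted p of 0.471 by the edgeR quasi-likelihood test, and it was 0.13 without the ChIP library of v134. The summed ratio of Ehmt1 was 5.20 times that of its partner Ehmt2, with an exact 95% interval of 0.667 to 234 for counting error. The interval includes 1, so a difference between the promoters of the 2 subunits was not detectable at this depth.

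Wiz, whose product binds the G9A/GLP complex, had the highest ratio of the group. There were 12 and 13 ChIP reads in v102 and v134, against 24 and 38 input reads. Both experiments were high, at the 77.9 and 77.2 percentiles of all promoters. The ratio was 0.403 (0.254 to 0.639), and Wiz was the 1 member in the top quartile of the ratio, which holds 25% of all promoters. Its log2 ratio was 0.88 ± 0.16 (SD, n = 2). The log2 fold change was 0.95 (SE 0.43), and the adjusted p of 0.0720 in the edgeR quasi-likelihood test missed the threshold. When promoters needed 20 or more reads in both inputs, which 13993 had, Wiz was called above input, as were 17.5% of promoters. The log2 fold change was then 1.29 and the edgeR adjusted p 0.0156, and every member kept had a higher log2 fold change than over all rows. Of 9 alternative fits, this was the 1 that passed. The edgeR adjusted p was 0.103 with the block, 0.136 without TMM and 0.0669 without mitochondrial rows, and the DESeq2 adjusted p was 0.243. Its ratio was close to that of the metalloproteinase Mmp9, 0.4, and lay under the Mmp12 ratio of 0.815. Wiz spans chr17:32354055-32389439 on the minus strand, and of its 5 annotated coding starts 2 lie more than 1 kb from the gene's start.

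The pair Suv39h1 and Suv39h2, the enzymes of pericentromeric heterochromatin, had intervals that included the median of all promoters and differed in opposite directions between the 2 experiments. Suv39h1 had 6 and 4 ChIP reads in v102 and v134, against 11 and 26 input reads. Its ratio was 0.545 in v102, at the 81.4 percentile, and 0.154 in v134, at the 54.6 percentile, and the summed ratio was 0.270 (0.136 to 0.536). Suv39h2 had 2 and 10 ChIP reads against 19 and 45 input reads. Here the lower value was in v102, 0.105, and the higher in v134, 0.222, with a summed ratio of 0.188 (0.102 to 0.344). The edgeR log2 fold changes were 0.39 (SE 0.62) and −0.14 (SE 0.53), with adjusted p of 0.638 and 0.847. Without the ChIP library of v102 both turned, to −0.05 and 0.48. The ratio of Suv39h1 was 1.44 times that of Suv39h2 (exact interval, 0.503 to 4.04), which includes 1. Suv39h2 spans chr2:3455815-3475031 on the minus strand. Suv39h1, at chrX:8061171-8074760 on the minus strand, lies on the chromosome that male cells hold in a single copy. Its 11 and 26 input reads stand beside medians of 10 and 20 over 780 X-linked promoters and of 20 and 37 over 23257 autosomal ones. The median ratio was 0.192 on the X and 0.154 on the autosomes.

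Among the erasers of mono- and dimethylated H3K9, Kdm3b was the higher and Kdm3a the lower in both experiments. Kdm3b had 9 and 11 ChIP reads in v102 and v134, against 27 and 39 input reads. The experiments gave nearly the same log2 ratio, 0.47 ± 0.04 (SD, n = 2), and the summed ratio was 0.303 (0.185 to 0.497). Kdm3a had 2 and 5 ChIP reads against 21 and 36 input reads. Its ratios were 0.0952 and 0.139, both under the Kdm3b ratios of 0.333 and 0.282, and the summed ratio was 0.123 (0.0571 to 0.264). The Kdm3b ratio was 2.47 times that of Kdm3a, and the exact interval of 0.913 to 7.39 included 1. In the edgeR quasi-likelihood test the log2 fold changes were 0.52 (SE 0.45) for Kdm3b and −0.76 (SE 0.63) for Kdm3a, with adjusted p of 0.361 and 0.342. Kdm3b lies at chr18:34777047-34838660 on the plus strand and Kdm3a at chr6:71588972-71632990 on the minus strand.

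Of the KDM4 demethylases, Kdm4c had the higher ratio and Kdm4a the lower, again in both experiments. Kdm4c had 4 and 14 ChIP reads in v102 and v134, against 20 and 39 input reads. It lay at the median of all promoters in v102, the 48.8 percentile, and in the upper part in v134, the 78.2 percentile, with a summed ratio of 0.305 (0.181 to 0.514). Kdm4a had 2 and 5 ChIP reads against 20 and 41 input reads. Both of its experiments were under the median, at the 27.6 and 44.6 percentiles, and the summed ratio was 0.115 (0.0535 to 0.246). The ratio of Kdm4c was 2.66 times that of Kdm4a, with an exact interval of 0.965 to 8.05 that included 1. The edgeR quasi-likelihood test gave log2 fold changes of 0.54 (SE 0.48) for Kdm4c and −0.85 (SE 0.63) for Kdm4a, with adjusted p of 0.371 and 0.279. Without the ChIP library of v134 the Kdm4c value turned to −0.35. Both genes are on chromosome 4, Kdm4c at chr4:74242497-74405860 on the plus strand and Kdm4a at chr4:118136957-118180043 on the minus strand.

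**Figure D2:**
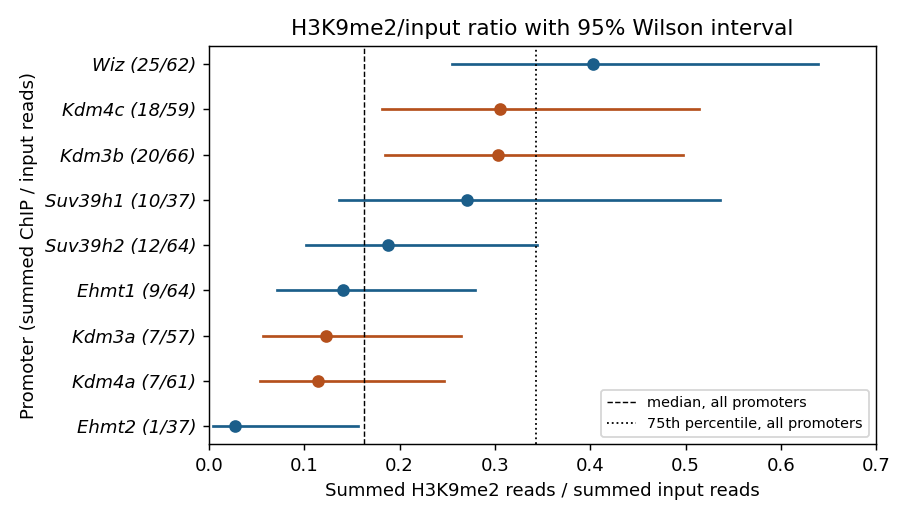
The H3K9me2/input ratio of each member promoter, in order, with its 95% Wilson interval (blue, writers and Wiz; orange, erasers; in brackets, summed ChIP and input reads). The dashed and dotted lines are the median, 0.162, and the 75th percentile, 0.343, of all promoters; only the Wiz point lies past the dotted line, and only the Ehmt2 interval ends below the dashed one.

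Ordered by ratio, the promoters ran from Wiz through Kdm4c, Kdm3b, Suv39h1, Suv39h2, Ehmt1, Kdm3a and Kdm4a to Ehmt2. Neighbours in this order were not separated by counting error, since each ratio lay within the interval of the one above it. At the last step the Ehmt2 ratio of 0.0270 lay below the lower bound of Kdm4a, 0.0535, but the Kdm4a ratio of 0.115 lay within the Ehmt2 interval. The intervals of 5 members included the median of all promoters, those of Wiz, Kdm4c and Kdm3b lay above it and that of Ehmt2 lay below it. By experiment, 3 members lay above the median log2 ratio of all promoters in both (Wiz, Suv39h1 and Kdm3b) and 3 lay below it in both (Ehmt2, Kdm3a and Kdm4a). Ehmt1, Suv39h2 and Kdm4c changed sides between the experiments.

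With Wiz counted among the writers, the pooled ratios of writers and erasers lay within each other's intervals. Without Wiz, the methyltransferase ratio lay just below the interval of the erasers (0.159 to 0.288). The eraser ratio lay within the interval of these methyltransferases (0.109 to 0.230), so the classes were not separated. The 4 methyltransferases together had 32 ChIP and 202 input reads, a ratio of 0.158 or 0.689 times that of all promoters (0.475 to 0.998). With Wiz the ratio of the writer side was 0.216, or 0.939 times that of all promoters (0.706 to 1.25), 25 of the 57 ChIP reads being from Wiz. Wiz was the only gene of the writer side that reached 20 reads in both inputs, and among promoters with that minimum its relative ratio was 2.16. The 4 erasers had 52 ChIP and 243 input reads, a ratio of 0.214 or 0.930 times that of all promoters (0.690 to 1.25). The relative value of the writer side was 1.13 in v102 and 0.832 in v134, and that of the erasers was 0.737 and 1.07. The methyltransferases without Wiz had 0.835 in v102 and 0.616 in v134. Which class was higher thus changed between the experiments, with or without Wiz. Without Wiz the 8 remaining members had a ratio of 0.189 (0.150 to 0.238).

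The members' promoters were richer in G and C than most. Over the 2 kb around the annotated gene start, GC content had a median of 56.2% in the members and of 50.9% over 24044 promoters that could be placed. Across these promoters the log2 ratio fell as GC content rose, with a Spearman rho of −0.545, given as a description since all promoters share the same 4 libraries. Between 50% and 70% GC, 13167 promoters had a median ratio of 0.103 and quartiles of 0.0556 and 0.185. All members but Kdm4c fell in this range. Against it, Wiz, Kdm3b, Suv39h1 and Suv39h2 lay above the upper quartile, Ehmt1, Kdm3a and Kdm4a lay between the median and the upper quartile, and Ehmt2 lay below the lower quartile. With the trend on GC content removed, Wiz stood at the 96.5 percentile, Kdm3b at the 93.7 and Suv39h1 at the 91.3, compared with 79.3, 70.9 and 71.0 before. The other members stood between the 33.5 percentile (Ehmt2) and the 68.0 percentile (Suv39h2), and the median of the members moved from the 50.0 to the 65.4 percentile. Kdm4a, above the median of the 50% to 70% GC range by its summed ratio, stood at the 40.8 percentile with the trend removed.

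**Figure D3:**
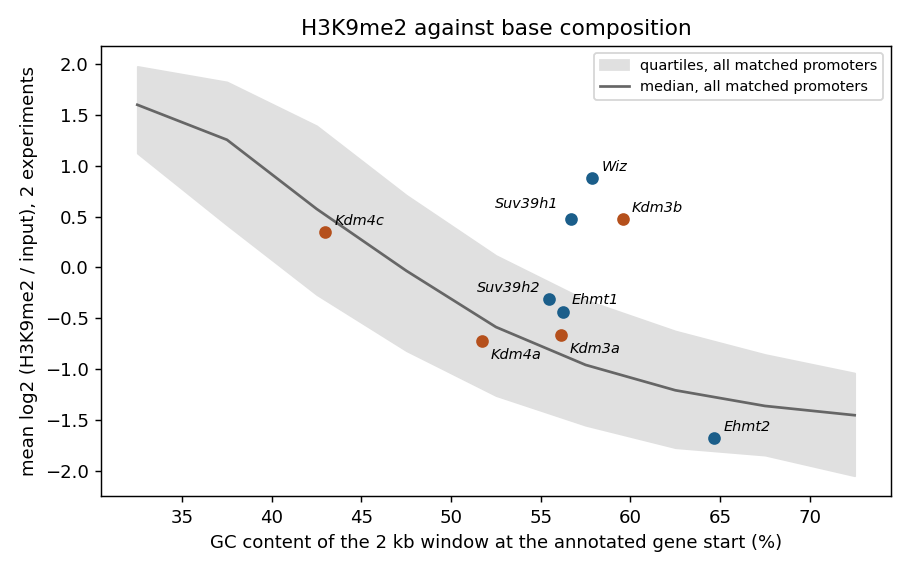
Mean log2 ratio of scaled ChIP to scaled input reads over the 2 experiments against GC content (%) of the 2 kb window at the annotated gene start. The line and band are the median and quartiles of 24044 promoters in bins of GC content and the points are the members (blue, writers and Wiz; orange, erasers); Wiz, Suv39h1 and Kdm3b lie above the band, Suv39h2 lies at its upper edge, and Kdm4c is the only member under 50% GC.

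Kdm4c was the exception in base composition, and its standing among promoters depends on which start a row of the table represents. The gene's annotated start, at chr4:74242497, lies in a window of 43.0% GC with 14 CpG, compared with a median of 57 CpG over all placed promoters. A second coding start 9439 bases downstream lies in a window of 55.7% GC with 116 CpG, as the 2 Kdm4c stretches above show. Between 40% and 50% GC, 8554 promoters had a median ratio of 0.239 and quartiles of 0.125 and 0.432. The Kdm4c ratio of 0.305 lay between the median and the upper quartile there, whereas it lay above the upper quartile of 0.185 of the GC-richer promoters. In the narrower range of 40% to 45% GC, its mean log2 ratio of 0.34 lay below the median of 0.57. With the GC trend removed at this start, Kdm4c moved from the 67.6 to the 44.2 percentile. The transcript start that each row uses is not given in the sources used here. For Suv39h1, Suv39h2, Kdm3a, Kdm3b and Kdm4a every coding start annotated in GENCODE lies within 1 kb of the gene's start. These 5 members had 56 ChIP and 285 input reads, a ratio of 0.196 (0.148 to 0.261). For Kdm3a, whose gene start is at chr6:71632990, RefSeq also holds a start at chr6:71609139. The 250 bases upstream of it hold 0 CpG at 48.4% GC, so the Kdm3a row is not free of this question.

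Other gene lists show the range of promoter H3K9me2 in the same machinery. Of 28 other genes of the H3K9 pathway, 3 passed the edgeR test above input and 8 below, compared with 18.6% and 17% of all promoters, and the median ratio was 0.110. When experiment was fitted as a block, 3 and 4 passed, compared with 15.8% and 8.3% of all promoters. Leaving out a single library left 3 to 4 above and 0 to 7 below, where 11.5% to 19.1% and 1.88% to 15.2% of all promoters were called. The 3 above input were Zfp518a and Zfp644, zinc finger proteins linked to the G9A/GLP complex, and Prdm2, an H3K9 methyltransferase. Zfp518a had 36 and 64 ChIP reads in v102 and v134 against 22 and 43 input reads, a ratio of 1.54 (1.13 to 2.10), at the 99.6 percentile of all promoters. Both experiments were high, and the log2 fold change was 2.87 (SE 0.34) with an adjusted p of 1.11e-14 in the edgeR quasi-likelihood test. Zfp644 had 15 and 25 ChIP reads against 24 and 41 input reads (log2 fold change 1.55, SE 0.39). Prdm2 had 19 and 21 against 12 and 42 (log2 fold change 1.87, SE 0.40), a higher ratio in v102 than in v134. All 3 genes have a further annotated coding start, 13454, 29670 and 18260 bases away, in windows of 37.1%, 33.5% and 36.6% GC. Prdm2 and Zfp518a lie at 55.5% and 56.5% GC at the gene start, close to the members' median. At the low end, the methyltransferase Setdb2 had 1 ChIP read against 89 input reads and Trim28, the corepressor that recruits SETDB1, had 1 against 68. The Setdb2 window overlaps that of Cab39l, whose start lies 88 bases away. At the annotated gene start the Trim28 window overlaps that of Slc27a5, 922 bases away, but the coding start of Trim28 lies 25038 bases from that position, in a window of 64.5% GC with 176 CpG.

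Compared with the members, the genes for methylation of other histone lysines had a lower summed ratio. The lists were not matched for GC content, with which the ratio fell across all promoters, and its part in this was not tested. Of 26 such promoters, 1 passed the edgeR test above input and 13 below, with a median ratio of 0.0571, beside the same 18.6% and 17% of all promoters. With the block 1 and 5 passed, beside 15.8% and 8.3%, and leaving out a single library left 0 to 1 above and 1 to 11 below, beside 11.5% to 19.1% and 1.88% to 15.2%. Their summed ratio was 0.388 times that of all promoters (0.325 to 0.464), below the members' interval of 0.760 to 1.15. The promoter above input was that of Nsd1, an H3K36 methyltransferase, with 16 and 11 ChIP reads against 22 and 26 input reads and a log2 fold change of 1.42 (SE 0.44, adjusted p of 0.00709 in the edgeR quasi-likelihood test). It lost the call without the ChIP of v102 (adjusted p of 0.135), without the input of v134 (0.222) and in DESeq2 (0.0907). At the low end, the H3K27 demethylase Kdm6b and the H3K4 methyltransferase Setd1b had 0 ChIP reads in both experiments against 68 and 46 input reads, which allows ratios of up to 0.0441 and 0.0652. The other promoters of the H3K9 pathway had a summed ratio of 0.948 times that of all promoters (0.843 to 1.06), within the interval of the members. Zfp518a, Zfp644 and Prdm2 held 180 of the 344 ChIP reads of that list, and the 25 promoters without them had a relative ratio of 0.511. The median percentile of the whole list was 37.2, compared with 50.0 for the members. Within this list the 8 other demethylases had a relative ratio of 0.343 (0.237 to 0.497), below the 0.930 (0.690 to 1.25) of the 4 member erasers, and the 6 methyltransferase partners had 2.01 (1.68 to 2.41). Of the 173 ChIP reads of these partners, 100 were from Zfp518a.

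**Figure D4:**
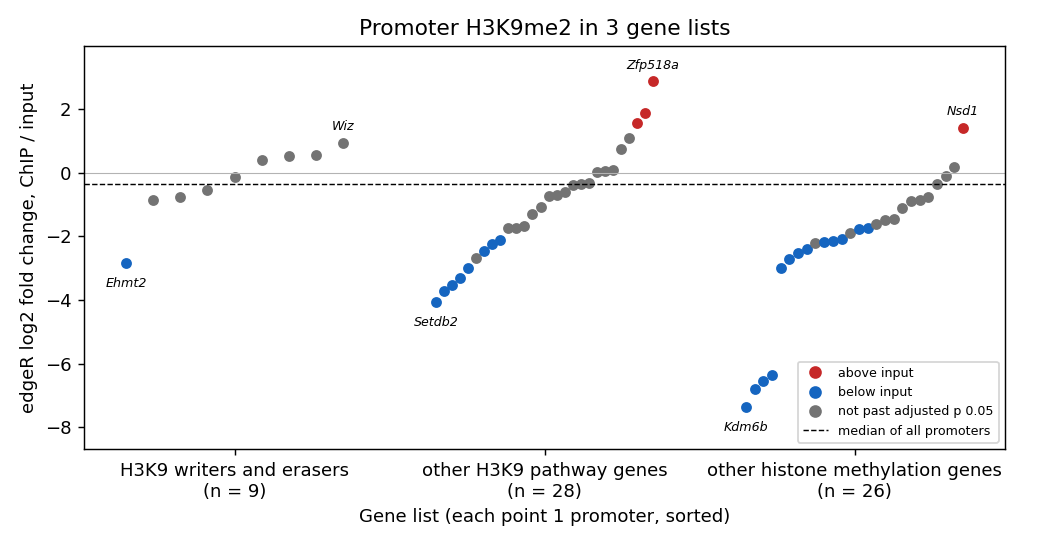
edgeR log2 fold change of ChIP over input for each promoter of the members (n = 9), of the other H3K9 pathway genes (n = 28) and of the genes for methylation of other histone lysines (n = 26), sorted within each list. Red and blue points passed an adjusted p of 0.05 above and below input, grey points did not, and the dashed line is the median of all promoters, −0.35; the 4 points under −6 are promoters with 0 ChIP reads, whose position depends on the prior count.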

How the data were processed

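The authors trimmed paired-end reads with Cutadapt (1.9.1 in the submitters' processing notes, with Trim Galore 0.4.2), aligned them to GRCm38 with Bowtie2 (2.2.7) and counted those within 1 kb of each transcription start with SeqMonk. They deposited counts for each library and a ratio, which equalled ChIP over input reads summed across both experiments in all 26354 rows. The lowest summed input was 21 reads. The annotation release and the handling of duplicate reads are not given in the sources used here. Members and gene lists were chosen with earlier results of these data known. Counts were compared with edgeR 4.0.16 (TMM, quasi-likelihood, 2 libraries against 2, the SE being the log2 fold change over the square root of F) and, as an alternative, DESeq2 1.42.0. Scaled log2 ratios used a pseudocount of 1 read. The experiments carry a ChIP and its own input each, so the number pairs the libraries; across promoters, the difference of the ChIP libraries correlated with that of the inputs (r of 0.104). Exact intervals between 2 genes were conditional on their summed reads. Positions, GC and CpG came from GENCODE M21 and RefSeq GRCm38.p6, in which 24074 symbols (91.3%) matched 1 gene. The trend on GC was removed by lowess (fraction 0.3). Beyond the members, promoters named were those above input in each list, the 2 lowest of each, reference promoters and overlapping neighbours. Other settings were a minimum of 20 reads in each input, no mitochondrial rows, no TMM, a pseudocount of 5 reads, the experiment number as a block and leaving out libraries.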

Additional observations from a re-analysis of the deposited data

How the results depend on the processing

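Depth limits single promoters, since members had 1 to 25 summed ChIP reads. With 1 experiment left out each arm held 1 library and no residual degrees of freedom remained, so values are given without a test. With at least 20 reads in each input, which 5 of 9 members and 13993 promoters pass, 2446 promoters were above input and 1678 below, compared with 4902 and 4484 over all rows. Of the members, 1 (Wiz) was then above input and 0 below. The pooled member ratio relative to all promoters was 1.35, and the median member percentile was 76.2. The writer side was then Wiz alone, with a relative ratio of 2.16. The replicate block, by experiment, left 2187 promoters and 0 members below input, and changed no other member's call. DESeq2 gave 3026 promoters above and 29 below input and 0 members below, with 17372 adjusted p undefined. Without TMM the overall median log2 fold change shifted by −0.14, and 43.1% of the calls were above input, compared with 52.2%. Under the minimum in each input the median was 0.11 higher, but it was taken over the 13993 promoters kept and not over the same set. The members kept rose by more. Wiz went from 0.95 to 1.29, Kdm3a from −0.76 to −0.41 and Kdm3b from 0.52 to 0.88. Kdm4a went from −0.85 to −0.51 and Kdm4c from 0.54 to 0.89. The share of calls above input was 59.3% under this minimum and 65.6% with the block. Leaving out 1 library gave 3037 to 5028 promoters above and 495 to 3995 below input and 0 members in either direction. Only these fits turned the sign of a member's log2 fold change, which then ranged from −1.24 to 0.13 for Ehmt1, −0.05 to 0.91 for Suv39h1, −1.44 to 0.48 for Suv39h2 (0.03 without the input of v134) and −0.35 to 1.08 for Kdm4c. Without mitochondrial rows the pooled member ratio was 0.843, and it was 0.932 to 0.942 with 1 experiment left out. The median member percentile was 55.2 from summed reads, 65.4 with the GC trend removed and 48.8 to 54.6 with 1 experiment left out. In all, 65 of the member values under the alternatives kept their direction and call, 6 lost the call (all Ehmt2), 1 gained it (Wiz) and 5 changed sign. The lone library of an arm was assumed to vary like the others. The causes were not tested.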
